A study of Homo sapiens with 4 samples.

Results

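Cytochrome P450 genes encode heme enzymes that use molecular oxygen to oxidise drugs, fatty acids, sterols, vitamins and steroid hormones. They were followed here in Caco-2, a cell line from a human colorectal tumour that comes to resemble absorptive enterocytes once confluent. The genes were chosen by name: those with a symbol made of CYP, a number, letters and a number, apart from the CYP1 family, CYP7A1, CYP51A1 and symbols of pseudogenes ending in P. This gave 43 genes of the 18417 genes with a probe set of their own, each measured by 1 probe set. RefSeq lists 42 of them as protein-coding and CYP2D7 as a transcribed pseudogene.

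Caco-2 cells were grown on collagen-coated Transwell inserts, porous membranes that separate an apical from a basolateral compartment, or on regular 6-well plates. On each support cells received 2 mM cholate, a primary bile acid given as its sodium salt, or vehicle for 3 h, and on inserts the cholate was given apically. The 4 groups were therefore cholate on Transwell, vehicle on Transwell, cholate on plates and vehicle on plates, with 1 array each, hybridised with RNA pooled from 3 samples. All groups came from the same line without genetic change. The cholate medium was Hanks' solution lacking calcium, and the sources used here do not say whether vehicle was the same medium. All groups are labelled as differentiated for 21 days, while the growth protocol gives 14 days for plates and a range for inserts, so support and age of the culture cannot be told apart. No value below has a replicate check, since pooling left 1 measurement per condition. The number of arrays limits the precision.

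Values are log2 intensities that the authors made with RMA, a method that removes background, puts the arrays on a common scale and gives 1 value per probe set. A probe set was taken as above background when its mean over the 4 arrays reached the 40th percentile of all probe sets, a log2 intensity of 4.84, called the floor below. Differences between 2 arrays were counted when they were at least 1.5-fold. Their background is the share of all 12900 genes above the floor that differ as much. Levels of different probe sets depend on their probes and are not set against each other.

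The arrays were close to each other, with correlations of 0.977 to 0.993 between pairs of arrays over probe sets above the floor. Of 12 absorptive enterocyte markers 11 were measured and all 11 lay above the floor, among them VIL1 and CDH17. Their summed linear intensity was 29210 in cholate and 30106 in vehicle on Transwell, against 30016 in cholate and 32185 in vehicle on plates. The sum is weighted to the markers with the highest values, among them KRT8, KRT18 and EPCAM. The median difference of the 11 markers between Transwell and plates was 0.03 log2 in cholate and 0.08 in vehicle. At least 1.5-fold higher on Transwell were 2 in cholate (FABP2 and KRT20), against 4.02% of all genes. In vehicle 3 were higher (FABP2, CDX2 and ANPEP), against 1.93%, and 0 were lower in either treatment. FABP2 was under the floor on plates, at 4.71 in cholate and 4.49 in vehicle. All 5 hepatocyte-type markers, which Caco-2 cells are known to make, were above the floor as well. Their summed linear intensity was 8338 in cholate and 8165 in vehicle on Transwell, against 12113 in cholate and 11249 in vehicle on plates. All 5 read lower on Transwell in both treatments, with a median difference of -0.60 log2 in cholate and -0.57 in vehicle. At least 1.5-fold lower were 3 in cholate, against 3.75% of all genes, and 2 in vehicle, against 3.16%. Leukocyte and endothelial markers were mostly below the floor. It was passed by 1 of 4 measured leukocyte markers (CD68, 8.71 to 9.45) and 1 of 3 endothelial markers (PECAM1, 5.58 to 6.27). The leukocyte marker PTPRC did not pass. Fibroblast markers were mostly above the floor, with 4 of 6 passing. These were COL1A1 (7.57 to 8.15), PDGFRA (5.63 to 6.41), COL1A2 (5.19 to 5.30) and COL3A1 (5.06 to 5.24). DCN and LUM were under the floor on all 4 arrays. The summed fibroblast markers were 343 in cholate and 336 in vehicle on Transwell, against 425 in cholate and 412 in vehicle on plates. The part of these marker differences in the results below was not tested, and fewer cells of a type cannot be told apart from less RNA per cell.

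P450 enzymes fall into microsomal forms, which receive electrons from the reductase encoded by POR, and mitochondrial forms, which receive them from ferredoxin. In intestinal epithelium the CYP3A enzymes are known for the first-pass metabolism of oral drugs. The families that hydroxylate sterols, bile acid precursors, vitamin D and retinoids make or remove hormones and signalling lipids. CYP11A1 and CYP19A1 open and close steroid synthesis in gonads and placenta: the first cuts the side chain of cholesterol, and the second, aromatase, turns androgens into oestrogens.

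The windows around the gene start are shown for 4 genes, picked after their values were seen. CYP19A1 and CYP11A1 were among 8 genes above the floor that read lower with cholate on both supports. CYP4F2 and CYP4F3 were among 8 that read lower on Transwell in both treatments. The windows run from 250 bases before to 50 bases after the RefSeq gene start on build GRCh38.p14, 5′ to 3′ on the gene's strand. Capitals mark matches on either strand to the nuclear receptor half-site AGGTCA, the AP-1 motif TGANTCA, the TATA box TATAAA or the HNF4 motif CAAAGTCCA, a set of motifs chosen with the results known.
CYP19A1, chr15:51318448-51318747, minus strand: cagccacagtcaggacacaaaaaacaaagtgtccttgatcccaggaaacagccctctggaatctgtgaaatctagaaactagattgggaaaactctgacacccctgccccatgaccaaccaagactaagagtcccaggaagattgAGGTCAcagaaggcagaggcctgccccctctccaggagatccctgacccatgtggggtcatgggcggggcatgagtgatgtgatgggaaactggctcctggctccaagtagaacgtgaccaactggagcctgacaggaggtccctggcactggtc
CYP11A1, chr15:74367597-74367896, minus strand: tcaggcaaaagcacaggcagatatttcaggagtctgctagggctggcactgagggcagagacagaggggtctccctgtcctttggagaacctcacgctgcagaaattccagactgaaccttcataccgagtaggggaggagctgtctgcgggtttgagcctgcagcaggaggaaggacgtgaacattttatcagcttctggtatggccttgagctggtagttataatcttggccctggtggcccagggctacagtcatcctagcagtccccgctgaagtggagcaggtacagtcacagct
CYP4F2, chr19:15898025-15898324, minus strand: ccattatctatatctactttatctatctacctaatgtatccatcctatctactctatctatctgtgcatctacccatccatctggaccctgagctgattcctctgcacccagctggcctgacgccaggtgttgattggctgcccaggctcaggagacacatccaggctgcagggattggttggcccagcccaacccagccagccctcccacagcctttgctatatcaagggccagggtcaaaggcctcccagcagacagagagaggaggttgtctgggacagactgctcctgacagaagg
CYP4F3, chr19:15641062-15641361, plus strand: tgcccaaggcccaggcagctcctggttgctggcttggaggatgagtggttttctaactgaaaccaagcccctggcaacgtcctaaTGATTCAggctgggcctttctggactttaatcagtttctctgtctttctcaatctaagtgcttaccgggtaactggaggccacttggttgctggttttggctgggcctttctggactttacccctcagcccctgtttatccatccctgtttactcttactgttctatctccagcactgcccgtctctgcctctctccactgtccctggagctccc
The CYP19A1 window held 1 match, to AGGTCA, and the CYP4F3 window 1 match, to TGANTCA, while these letters were not found in the other windows. No matches overlapped in these 4 windows. Of 27305 RefSeq windows of this length, 13.9% held AGGTCA, 7.76% TGANTCA, 11.95% TATAAA and 0.359% CAAAGTCCA. Windows were matched for 30 of the 43 genes, of which 10 held AGGTCA, 2 held TGANTCA, 7 held TATAAA and 2 held CAAAGTCCA. CYP19A1 is known for several alternative first exons used in different tissues, and which of them these cells used is not shown by the array.

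Of all 18417 genes with a probe set of their own, 12900 lay above the floor. Of the 43 P450 genes, 20 lay above it, a smaller share. The other 23 lay below it, 22 of these with all 4 arrays under it. Those just inside the floor were CYP2E1, with a mean of 4.85, and CYP11B1 and CYP46A1, each at 5.03. Just outside were CYP2J2 at 4.76 and CYP26B1 at 4.48. Counts below are over the 20 genes above the floor. By role, the floor was passed by 4 of 5 steroid hormone genes, 6 of 13 genes of drug and arachidonate metabolism, 3 of 12 CYP4 genes of fatty acid omega-hydroxylation, 2 of 5 genes of bile acid and oxysterol synthesis, 2 of 3 vitamin D genes, 2 of 4 retinoid genes and CYP20A1, whose substrate is not settled.

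**Figure D1:**
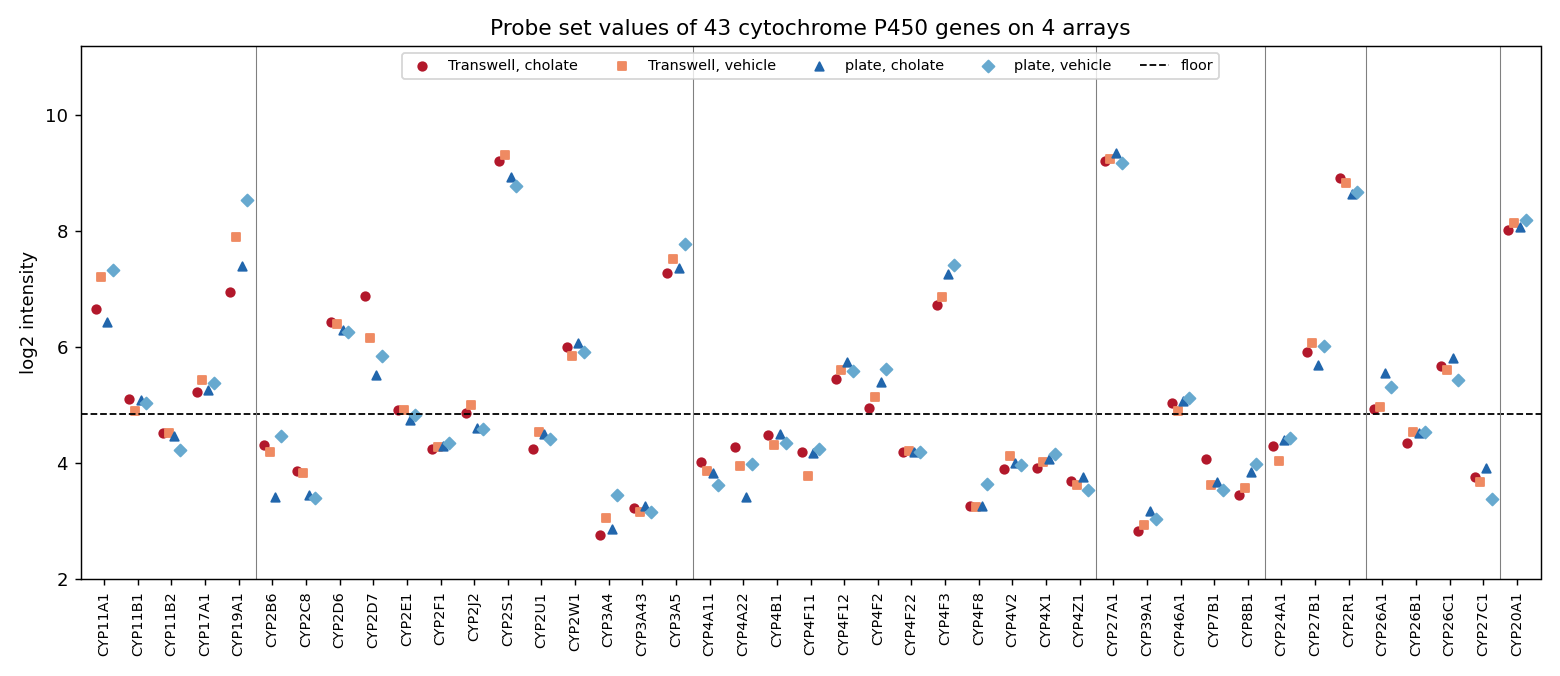
Log2 intensity (vertical axis) of the probe sets of the 43 cytochrome P450 genes on each of the 4 arrays, with genes in role groups divided by grey lines, from steroid hormones at the left over drug and arachidonate metabolism, CYP4 genes, bile acid and oxysterol synthesis, vitamin D and retinoids to CYP20A1. The dashed line is the floor of 4.84; 23 genes have a mean below it, and the 4 points of CYP19A1 and CYP11A1 lie further apart than those of most other genes above it.

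The first comparison asked which P450 transcripts differed between cholate and vehicle on each support. The steroid hormone genes CYP19A1 and CYP11A1 read lower in cholate on plates and on Transwell, and most other P450 genes lay close to 0. On plates 2 of the 20 genes above the floor were at least 1.5-fold lower, against 2.35% of all genes, and 0 were higher, against 1.49%. On Transwell 1 was lower (CYP19A1), against 0.736% of all genes, and 1 was higher (CYP2D7), against 0.357%. The median difference of the 20 genes was -0.06 log2 on plates and -0.06 on Transwell, beside -0.03 and -0.01 for all genes. The 2 pairs of arrays share no array, and 12 of the 20 genes had the same sign in both, against 60.8% of all genes. Of these, 8 were lower in both, against 34.7% of all genes, and 4 were higher in both, against 26.1%.

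CYP19A1 read 7.40 in cholate and 8.53 in vehicle on plates, a log2 difference of -1.14 (2.20-fold lower). On Transwell it read 6.96 in cholate and 7.91 in vehicle, a difference of -0.95 (1.93-fold lower). Both cholate arrays were thus below both vehicle arrays. Of the 12900 genes above the floor, 45 had a difference this low or lower on plates and 18 on Transwell, CYP19A1 included. CYP11A1 read 6.43 in cholate and 7.32 in vehicle on plates, a difference of -0.89 (1.85-fold lower). It read 6.65 in cholate and 7.21 in vehicle on Transwell, a difference of -0.55, or 1.47-fold lower and so just short of the fold counted, which it reached under median centring of the arrays. Its cholate arrays also lay below both vehicle arrays. At least as low were 79 genes on plates and 115 on Transwell.

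The other steroid hormone genes above the floor lay near it. CYP17A1, the enzyme that makes androgens from progestagens, read 5.26 in cholate and 5.38 in vehicle on plates, and 5.23 in cholate and 5.43 in vehicle on Transwell. CYP11B1, which makes cortisol in the adrenal cortex, differed by 0.06 on plates and 0.22 on Transwell, with all values between 4.89 and 5.10. CYP11B2, aldosterone synthase, was under the floor on all 4 arrays. The electron donors of the enzymes that stood out, named for that role after their values were seen, were near 0 in both pairs. POR, which serves aromatase, differed by 0.13 on plates and 0.06 on Transwell, and FDX1, the ferredoxin that serves CYP11A1, by 0.02 and 0.08.

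An additive model of support and treatment over all 4 arrays was fitted with limma to the 19978 probe sets above the floor. It gives the mean difference over both pairs, and its error has 1 residual degree of freedom, the difference between the pairs, so it does not measure the spread between cultures. The cholate term was -1.04 with an SE of 0.10 for CYP19A1 (lower in 2 of 2 pairs) and -0.72 with an SE of 0.12 for CYP11A1 (lower in 2 of 2 pairs). Neither passed the limma test after Benjamini-Hochberg adjustment over all probe sets, with adjusted p = 0.312 and adjusted p = 0.326. Of the 20 genes 0 passed, against 0% of all probe sets, since the smallest adjusted p of any probe set was 0.312. At an unadjusted limma p under 0.05 there were 3 P450 genes, CYP19A1, CYP11A1 and CYP3A5, against 7.99% of all genes above the floor.

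**Figure D2:**
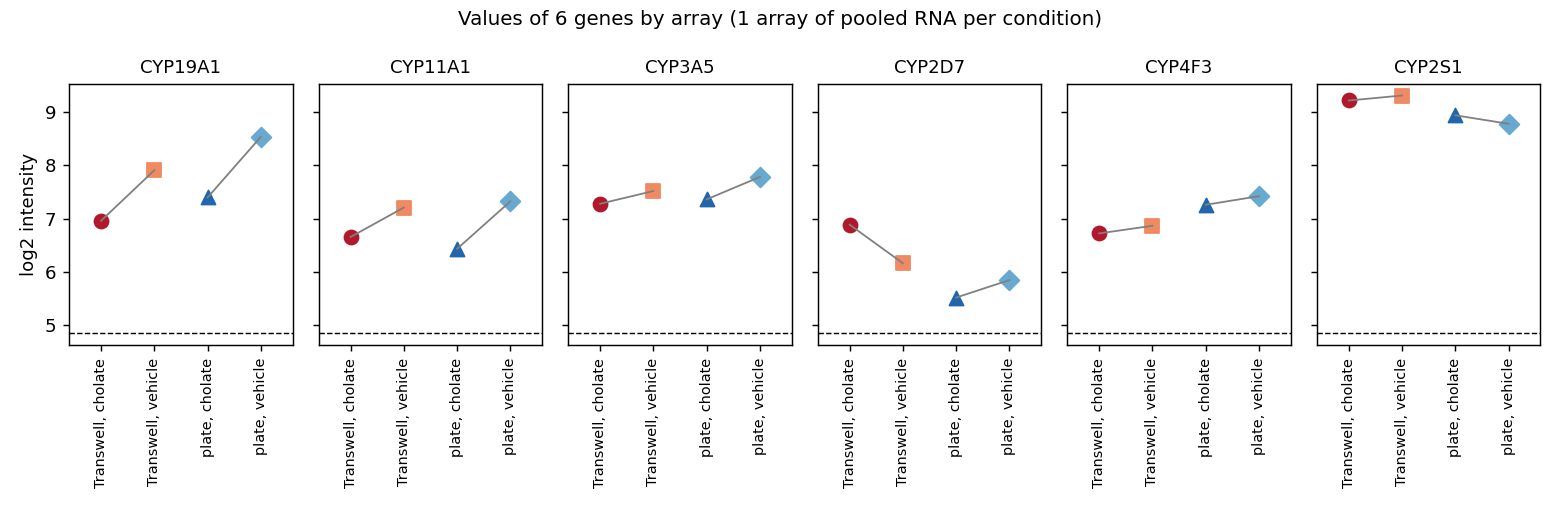
Log2 intensity (vertical axis, shared) of 6 genes on the 4 arrays, with 1 point per array and grey lines joining cholate and vehicle on the same support; the dashed line is the floor of 4.84. CYP19A1, CYP11A1 and CYP3A5 were lower in cholate on both supports, CYP2D7 was higher in cholate on Transwell and lower in cholate on plates, CYP4F3 was lower and CYP2S1 higher on Transwell in both treatments.

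Among genes of drug metabolism, CYP3A5 read 7.36 in cholate and 7.78 in vehicle on plates, a difference of -0.42. On Transwell it read 7.28 in cholate and 7.52 in vehicle, a difference of -0.24. CYP3A5 encodes a CYP3A enzyme found in intestine and liver, and both differences were below the fold counted (limma adjusted p = 0.441). CYP3A4, the main drug-metabolising P450 of adult intestine, was under the floor on all 4 arrays. It read 2.86 in cholate and 3.45 in vehicle on plates, and 2.76 in cholate and 3.04 in vehicle on Transwell. CYP3A43 was also under the floor throughout, between 3.16 and 3.25.

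CYP2D7, the pseudogene next to CYP2D6, went opposite ways on the supports. It read 5.52 in cholate and 5.84 in vehicle on plates, a difference of -0.33. On Transwell it read 6.88 in cholate and 6.16 in vehicle, a difference of 0.72 (1.65-fold higher), and 18 of 12900 genes were at least as high. The response was therefore 1.05 log2 higher on Transwell than on plates. It was the only gene of the 20 whose responses differed by at least 1.5-fold, against 1.59% of all genes with a higher and 1.46% with a lower response on Transwell. This difference uses all 4 arrays and has no test. CYP2D6, the gene of a hepatic enzyme that oxidises many basic drugs, differed by 0.04 on plates and 0.03 on Transwell in its own probe set, values whose sign turns under median centring of the arrays. A second probe set names CYP2D6 together with another locus and read 6.02 in cholate and 5.37 in vehicle on plates, and 5.78 in cholate and 6.09 in vehicle on Transwell. The differences of this probe set were 0.65 on plates, more than 1.5-fold, and -0.31 on Transwell. The sequences of CYP2D6 and CYP2D7 are close to each other, so signal from one gene can reach the other's probes and the values of both are uncertain.

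The remaining drug and arachidonate genes above the floor differed by less. CYP2S1, a P450 of epithelia outside the liver, read 8.94 in cholate and 8.78 in vehicle on plates, and 9.22 in cholate and 9.31 in vehicle on Transwell. CYP2W1, known as a tumour-associated form in colorectal cancer, was higher by 0.16 on plates and 0.17 on Transwell. CYP2E1, the ethanol-oxidising form, had plate values under the floor and differed by -0.08 and 0.00. Of the 7 genes below the floor, CYP2J2, an epoxygenase of arachidonic acid, had 4.87 in cholate and 5.00 in vehicle on Transwell and was under the floor on plates. CYP2B6, CYP2C8, CYP2F1 and CYP2U1 were under it on all 4 arrays, like both CYP3A genes named above. CYP2B6 read 3.41 in cholate and 4.46 in vehicle on plates, a difference of -1.06 that lies wholly under the floor.

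The CYP4 genes encode enzymes that hydroxylate the end of fatty acids and eicosanoids. CYP4F3, which inactivates leukotriene B4, read 7.26 in cholate and 7.42 in vehicle on plates, and 6.72 in cholate and 6.86 in vehicle on Transwell. CYP4F2, known for the side chains of vitamins E and K, differed by -0.23 on plates and -0.20 on Transwell, and CYP4F12 by 0.16 and -0.16. Each of these was under the fold counted on both supports, as were most of all genes above the floor. The other 9 genes, CYP4A11, CYP4A22, CYP4B1, CYP4F8, CYP4F11, CYP4F22, CYP4V2, CYP4X1 and CYP4Z1, read between 3.25 and 4.50 on every array, all under the floor. Their cholate differences ran between -0.57 and 0.23 on plates and between -0.23 and 0.41 on Transwell.

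Cholate is itself a product of bile acid synthesis in liver. CYP27A1, a mitochondrial sterol hydroxylase that starts the alternative pathway, read 9.36 in cholate and 9.18 in vehicle on plates, and 9.22 in cholate and 9.25 in vehicle on Transwell. CYP46A1, a cholesterol hydroxylase of brain, lay between 4.90 and 5.12 and differed by -0.04 and 0.13. CYP8B1, the sterol hydroxylase that sets the share of cholic acid, CYP7B1, an oxysterol hydroxylase, and CYP39A1, another one, were under the floor on all 4 arrays, between 2.83 and 4.06. None of the 5 genes, 3 of them under the floor, was 1.5-fold apart in either cholate comparison. This is near the share of all genes above the floor, which was 0.357% to 2.35% per cholate comparison and direction.

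Vitamin D and retinoid genes likewise had no member 1.5-fold apart in cholate, which is again near the share of all genes. CYP2R1, which takes the first step in activating vitamin D, read 8.64 in cholate and 8.68 in vehicle on plates, and 8.92 in cholate and 8.83 in vehicle on Transwell. CYP27B1, which completes the active hormone, differed by -0.33 on plates and -0.16 on Transwell, and CYP24A1, which degrades it and is a classical target of the vitamin D receptor, was under the floor throughout, between 4.03 and 4.44. CYP26A1, which clears retinoic acid, was 0.24 higher on plates and differed by -0.03 on Transwell. CYP26C1, of the same family, was 0.37 higher on plates and 0.07 on Transwell. CYP26B1 and the retinol desaturase gene CYP27C1 were under the floor. CYP20A1 differed by -0.13 on each support, with values between 8.02 and 8.20.

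**Figure D3:**
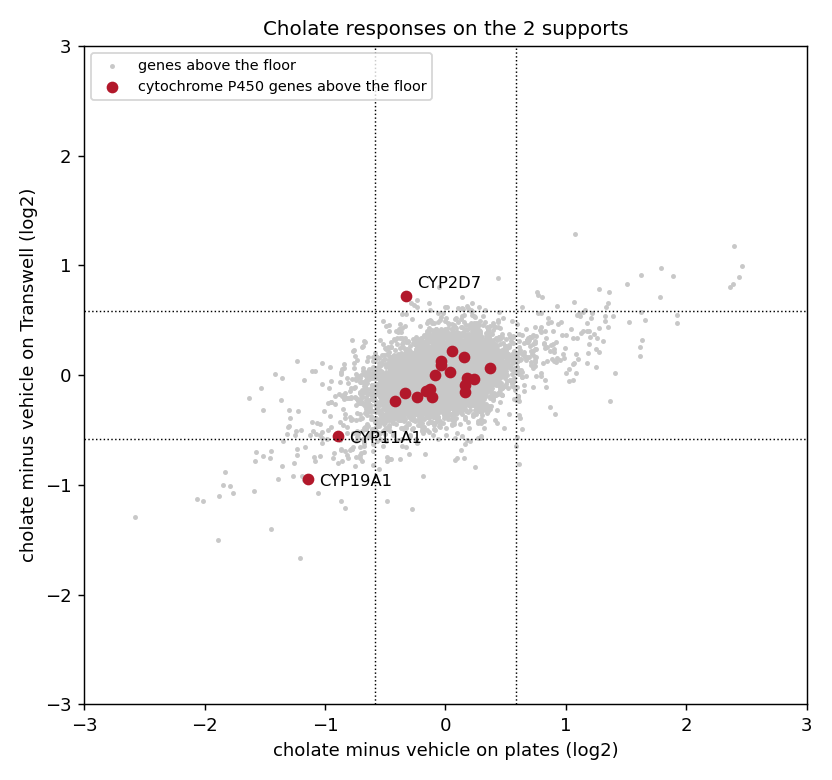
Log2 difference of cholate minus vehicle on plates (horizontal axis) against the same on Transwell (vertical axis), with the 20 cytochrome P450 genes above the floor in red and all genes above the floor in grey; dotted lines mark 1.5-fold, and 1 gene lies outside the axes. CYP19A1 lies beyond the lines on both supports, CYP11A1 on plates, and CYP2D7 beyond the line for Transwell.

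The second comparison set Transwell against plates, once in cholate and once in vehicle. CYP4F3, CYP4F2, CYP19A1 and CYP26A1 were among the genes that read lower on Transwell in both treatments, and CYP2S1 and CYP2D7 among those higher. In cholate 1 of the 20 genes was at least 1.5-fold lower (CYP26A1), against 3.75% of all genes, and 1 was higher (CYP2D7), against 4.02%. In vehicle 1 was lower (CYP19A1), against 3.16% of all genes, and 0 were higher, against 1.93%. The median difference was -0.05 log2 in cholate and -0.02 in vehicle, beside 0.02 and 0.02 for all genes. The sign was the same in both treatments for 14 of the 20 genes, against 72.8% of all genes. Of these, 8 were lower in both, against 33.2% of all genes, and 6 were higher in both, against 39.5%. The Transwell comparisons share their arrays with the cholate comparisons, so they are not independent of them.

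CYP4F3 read 6.72 on Transwell and 7.26 on plates in cholate, a log2 difference of -0.54 (1.45-fold lower). In vehicle it read 6.86 on Transwell and 7.42 on plates, a difference of -0.56 (1.47-fold lower). Both Transwell arrays were below both plate arrays, and the limma support term was -0.55 with an SE of 0.09 (adjusted p = 0.116). CYP4F2 read 4.94 on Transwell and 5.39 on plates in cholate, and 5.14 on Transwell and 5.63 on plates in vehicle, differences of -0.45 and -0.49. Its limma support term was -0.47 with an SE of 0.09 (adjusted p = 0.125), and its Transwell arrays were likewise below both plate arrays. CYP4F2 and CYP4F3 lie on chromosome 19 and are close in sequence, so signal of one may reach the probes of the other. CYP4F12, on the same chromosome, differed by -0.30 in cholate and 0.02 in vehicle.

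CYP19A1 read 6.96 on Transwell and 7.40 on plates in cholate, a difference of -0.44, and 7.91 on Transwell and 8.53 on plates in vehicle, a difference of -0.63 (1.55-fold lower). Its limma support term was -0.53 with an SE of 0.10 (adjusted p = 0.126). CYP11A1 differed by 0.22 in cholate and -0.12 in vehicle. CYP26A1 read 4.93 on Transwell and 5.54 on plates in cholate, a difference of -0.61 (1.53-fold lower), and 4.96 on Transwell and 5.31 on plates in vehicle, a difference of -0.34. Its Transwell values lay close to the floor, and under median centring or quantile normalization of the arrays its difference in cholate was less than 1.5-fold.

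On the higher side, CYP2S1 read 9.22 on Transwell and 8.94 on plates in cholate, a difference of 0.28, and 9.31 on Transwell and 8.78 on plates in vehicle, a difference of 0.53. Both Transwell arrays were above both plate arrays (limma support term 0.40 with an SE of 0.11, adjusted p = 0.167). CYP2D7 read 6.88 on Transwell and 5.52 on plates in cholate, a difference of 1.37 (2.58-fold higher), and 6.16 on Transwell and 5.84 on plates in vehicle, a difference of 0.31. CYP2R1 was 0.27 higher on Transwell in cholate and 0.15 in vehicle, and CYP27B1 0.22 and 0.05. CYP3A5 differed by -0.08 in cholate and -0.27 in vehicle, and CYP27A1 by -0.14 and 0.07. Of the genes not given with values above, CYP2D6, CYP2E1 and CYP2W1 differed by at most 0.18 in size, CYP11B1, CYP17A1, CYP20A1 and CYP46A1 by at most 0.22, and CYP26C1 by at most 0.17. The second probe set that names CYP2D6, left out of the counts, differed by -0.24 in cholate and 0.72 in vehicle.

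None of the 20 genes passed the limma test for support either, against 0% of all probe sets, for which the smallest adjusted p was 0.0858. At an unadjusted limma p under 0.05 there were 6 P450 genes (CYP4F3, CYP4F2, CYP19A1, CYP26A1, CYP2S1 and CYP2D7), against 24.1% of all genes above the floor. The count of P450 genes was thus near that of genes in general. When the floor was raised to the 60th percentile, which left 13319 probe sets, CYP4F3 (adjusted p = 0.0387) and CYP19A1 (adjusted p = 0.0467) passed the limma test for support, as did 807 of all probe sets (6.06%), and 0 genes of the family passed for cholate.

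**Figure D4:**
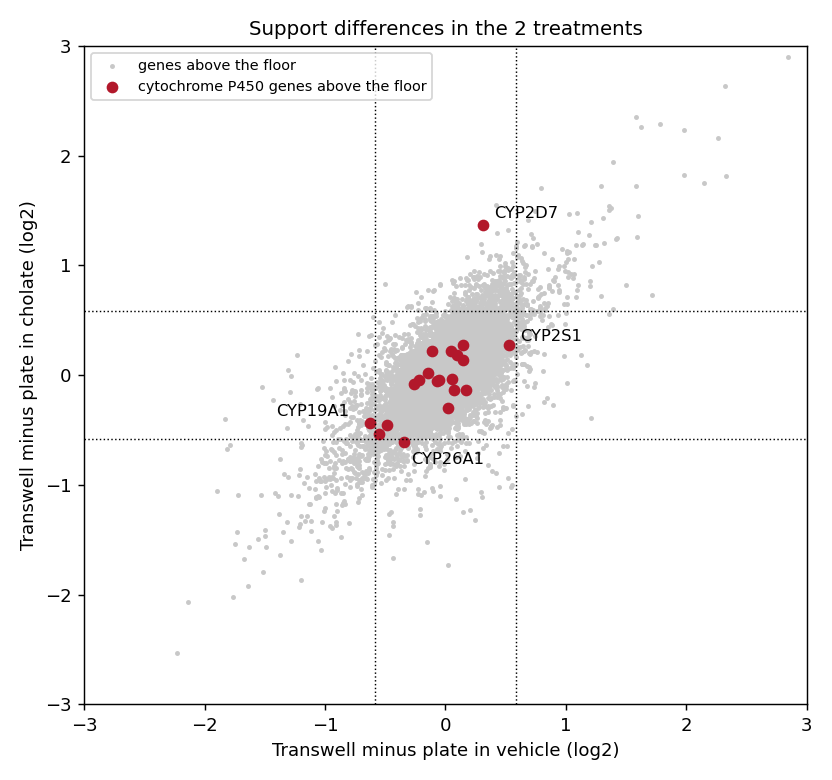
Log2 difference of Transwell minus plate in vehicle (horizontal axis) against the same in cholate (vertical axis), with the 20 cytochrome P450 genes above the floor in red and all genes above the floor in grey; dotted lines mark 1.5-fold. CYP2D7 and CYP26A1 lie beyond a line in cholate and CYP19A1 in vehicle, and the other genes lie within the lines.

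The proteins that supply P450 enzymes with electrons and heme were measured for 14 of 17 listed genes, all above the floor. None of the 14 was 1.5-fold apart in any of the 4 comparisons. This is near the share of all genes, which was 0.357% to 4.02% per comparison and direction. The differences of the 14 genes ran from -0.46 to 0.22 for cholate on plates and -0.19 to 0.09 for cholate on Transwell. They ran from -0.43 to 0.29 for Transwell in cholate and -0.39 to 0.26 for Transwell in vehicle. The limma test passed 0 of them for cholate and 0 for support, with 0 and 3 at an unadjusted p under 0.05, against 7.99% and 24.1% of all genes above the floor.

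Of 17 listed transcription factors that act on P450 genes, 11 were measured and 10 lay above the floor. For cholate 1 was at least 1.5-fold higher on plates, CEBPB, a stress-responsive factor, by 0.84, and it differed by 0.13 on Transwell. None was lower on plates, and none was 1.5-fold apart on Transwell. NR5A2, the liver receptor homologue known to act on CYP19A1 in ovary and breast stroma, differed by 0.06 on plates and 0.05 on Transwell. For support in cholate, NR1I3, the xenobiotic receptor CAR, was 0.68 higher on Transwell, and NR5A2 and CEBPB each stood at -0.67. In vehicle NR1I3 (0.62), VDR, the vitamin D receptor (0.69), and CEBPA, a factor of epithelial and liver differentiation (0.60), were higher on Transwell, while NR5A2 stood at -0.67 and NR0B2, a repressor induced by bile acid signalling, at -0.60. NR0B2 was under the floor in vehicle on Transwell. The limma test passed 0 of the 10 for cholate and 0 for support, with 0 and 5 at an unadjusted p under 0.05, against 7.99% and 24.1% of all genes above the floor. At 1.5-fold, the shares of all genes were 1.49% higher for cholate on plates, 4.02% higher and 3.75% lower for Transwell in cholate, and 1.93% higher and 3.16% lower for Transwell in vehicle.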

How the data were processed

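The authors deposited log2 intensities for 33297 probe sets on each array. The submitters' processing notes name RMA, while the sources used here name no software for it. The 4 arrays each held pooled RNA of 3 samples, per the labels. Probe sets were named from the platform annotation, and all 43 symbols matched RefSeq (GRCh38.p14) by gene number. Of these, 19460 had 1 symbol, and the one with the highest mean stood for a gene. Probe sets with several symbols were left out of the counts.

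Differences of 2 arrays are log2 differences without a test. The additive test used limma 3.58.1 (lmFit, eBayes) in R 4.3.3, 2-sided, with Benjamini-Hochberg adjusted p under 0.05 over 19978 probe sets and a prior of 2.83 degrees of freedom. It was run on simulated data with cholate differences of 2 log2, larger than any of the P450 genes, so smaller ones were not tried. The genes, role groups, lists and motifs were chosen with earlier results of these data known. Genes above the floor were named with values on every array when 1.5-fold apart in a comparison or passing limma, plus the 10 with the highest means. The others that are named were picked by role or after their values were seen. Alternatives were median centring, quantile normalization, cyclic loess, no floor, the 60th percentile, the mean of a gene's probe sets, a 2-fold threshold, and eBayes with trend or robust.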

Additional observations from a re-analysis of the deposited data

Results flagged for a closer look

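CYP2D7 was singled out because its cholate differences on the supports were at least 1 log2 apart. They were 0.72 log2 on Transwell and -0.33 on plates, a difference of 1.05. CYP2B6, an enzyme of drug metabolism, was singled out for the same reason, at 0.12 on Transwell and -1.06 on plates, a difference of 1.17. Seen as a support difference, CYP2B6 stood at 0.91 in cholate and -0.27 in vehicle, which is the same 1.17 from the same 4 values. All 4 values of CYP2B6 lay under the floor, and its low value was 3.41 in cholate on plates. These differences were not tested, since each uses all 4 arrays.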

How the results depend on the processing

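No pairing by replicate number was possible because each condition had 1 array and the labels give no replicate numbers. The additive limma fit compares cholate with vehicle within each support and gives the mean difference over both pairs. Under median centring, quantile normalization and cyclic loess, the 132 recomputed differences of the 11 genes named by rule moved by at most 0.097 log2. The sign changed in 4 of them, all of CYP2D6 for cholate and all near 0: on plates 0.04 became -0.03 under median centring, -0.04 under quantile normalization and -0.01 under cyclic loess, and on Transwell 0.03 became -0.02 under median centring. Averaging a gene's probe sets could change no P450 gene, since each has 1. Counts are small, so 1 gene near the threshold moves them. For genes at least 1.5-fold lower, median centring gave 2 for cholate on Transwell (CYP11A1 added), and median centring and quantile normalization gave 0 for Transwell in cholate (CYP26A1 lost). Without a floor 4 were lower for cholate on plates, 3 higher on Transwell in cholate and 3 had different responses on the supports, the added genes all lying under the floor. With the floor at the 60th percentile 8 genes were left, with 0 higher for cholate on Transwell, 0 higher and 0 lower on Transwell in cholate, 0 with different responses and 2 passing limma for support, where 807 of 13319 probe sets (6.06%) passed. At 2-fold, 1 was lower for cholate on plates (CYP19A1), while 0 were higher and 0 lower for cholate on Transwell and 0 lower on Transwell in vehicle or in cholate. The share of all genes was not computed for the fold counts under these other settings, so they are not set beside genes in general. Without CYP2D7, an alternative chosen after seeing the data, 0 were higher for cholate on Transwell, 0 higher on Transwell in cholate and 0 had different responses. The smallest adjusted p for cholate over all probe sets ran from 0.139 to 0.451 over the 9 settings, and for CYP19A1 it was 0.236 with trend, when 293 probe sets passed for support and 0 of the family did. The floor is a chosen cut and no lower limit of the readings, since P450 genes below it read down to 2.76.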

Other observations

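A further 7 probe sets name several genes, at least 1 of them a P450 gene of the families above, and entered no count. The probe set shared by CYP3A7, the fetal CYP3A form, and its readthrough transcript read 3.18 in cholate and 3.36 in vehicle on Transwell, and 3.57 in cholate and 3.86 in vehicle on plates, all under the floor. A probe set shared by CYP2A6, CYP2A7 and CYP2A13 read 4.77 in cholate and 4.75 in vehicle on Transwell, and 5.10 in cholate and 4.80 in vehicle on plates, with a mean of 4.86, just above the floor, and 3 arrays under it. Another one names these genes and the pseudogene CYP2A7P1, with a mean of 4.79, below the floor. It read 4.77 in cholate and 4.71 in vehicle on Transwell, and 4.93 in cholate and 4.74 in vehicle on plates. The 3 probe sets shared by the adrenal steroid hydroxylase gene CYP21A2 and its pseudogene read between 4.04 and 4.34.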
